A study of Mus musculus with 16 samples.

Results

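8 genes listed as output factors of the circadian clock, some of which also act back on it, were followed here: Dbp, Tef, Hlf, Nfil3, Ciart, Bhlhe40, Bhlhe41 and Rora. They were chosen by name as clock-controlled output transcription factors, with the responses of these libraries to the Fos hairpin already known, and are 8 of the 24984 genes counted. All 8 were present in all 16 libraries. The study asked what lowering Fos, an immediate early gene and a subunit of the AP-1 transcription factor, does to gene expression in old tissue. Female wild-type C57BL/6 mice labelled 24 months old received an intravenous adeno-associated virus (AAV8) that carried either a short hairpin against Fos (shFos) or a non-targeting hairpin (NT), and kidney and liver RNA were sequenced in 4 libraries for each tissue and hairpin. Every animal therefore carried a vector and a hairpin, and no uninjected or young group is part of these comparisons. By the study's methods, 24 months was the age at injection, and the tissues were collected some months later. The methods name no promoter that limits the hairpin to a cell type, and the hour of tissue collection is not given in the sources used here.

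In the mammalian clock, BMAL1 (the product of Arntl) and CLOCK bind E-boxes and switch on their repressors, the PER and CRY proteins, together with output factors. DBP, TEF and HLF are the PAR bZIP activators, which bind D-box sites, and NFIL3 (E4BP4) binds the same sites as a repressor; in liver and kidney this pair of opposing activities is known to drive daily rhythms of detoxification and transport genes. CIART (CHRONO), BHLHE40 (DEC1) and BHLHE41 (DEC2) repress BMAL1-CLOCK activity, while RORA activates Arntl through RORE sites that the REV-ERB repressors (Nr1d1, Nr1d2) also bind.

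Of the members, 7 had a promoter in the RefSeq table (GRCm38.p6), 8 windows in all since Tef has 2 starts. In the 250 bases before the start, the E-box (CACGTG, searched on both strands) was found in 3 members, Ciart, Tef and Bhlhe41, and in 6.02% of 32851 windows of the same length. The following sequences are shown because they hold the clock's own binding motif. The windows of Dbp, Nfil3 and Rora held neither this motif nor any of the others named below. Capitals mark the E-box, and positions count back from the start. The Ciart window, on the minus strand at chr3:95882229-95882478, held 3 E-boxes that begin 116, 58 and 44 bases before the start, inside an intron of the antisense gene C920021L13Rik:
Ciart: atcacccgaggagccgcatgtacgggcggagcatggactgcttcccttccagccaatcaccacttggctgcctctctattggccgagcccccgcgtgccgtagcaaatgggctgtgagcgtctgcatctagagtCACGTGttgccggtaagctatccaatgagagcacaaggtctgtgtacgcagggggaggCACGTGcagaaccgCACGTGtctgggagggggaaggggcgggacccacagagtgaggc

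Each start of Tef had 1 E-box on the plus strand, at 127 bases before the first start (chr15:81802536-81802561, in a UTR exon of a longer Tef transcript and a noncoding exon of Gm17597) and at 138 bases before the second (chr15:81811266-81811291, in a Tef intron). Bhlhe41 had 1, on the minus strand and 153 bases before the start (chr6:145865558-145865583), with the motif itself outside any annotated gene. The sites are given with their flanks.
Tef start 1: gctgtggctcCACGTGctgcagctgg
Tef start 2: cctggcccagCACGTGtctacatcgt
Bhlhe41: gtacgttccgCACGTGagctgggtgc

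The cyclic AMP response element (CRE, TGACGTCA, 1.55% of all windows) occurred in 1 member, Hlf, 9 bases before its start on the minus strand (chr11:90390918-90390936), outside any annotated gene.
Hlf, with the CRE in capitals: gtgcgggcccTGACGTCAc
No window of the 7 members held the letters of a D-box (TTANGTAA, 2.06% of all windows), a RORE (0.493%) or an AP-1 site (TGANTCA, 6.75%), each searched on both strands. The search covered these letters in this window alone. Bhlhe40 had no entry.

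The libraries held 14194543 to 15534665 counted reads in kidney and 16652150 to 18300277 in liver, and 3 reads corresponded to 0.138 to 0.277 CPM, the reads of a gene scaled to a common library total. Fos itself averaged 3.80 ± 0.714 CPM (SD, n = 4) in NT kidney and 2.28 ± 0.654 in shFos kidney (exact two-sided permutation test, p = 0.0286, the smallest possible with 4 against 4 libraries), and 3.54 ± 1.52 against 2.57 ± 0.875 in liver (exact permutation p = 0.343). The 6 kidney markers summed to 7213 to 9804 CPM in kidney and to 0.185 to 1.98 in liver, and the 6 liver markers to 62220 to 265500 in liver and to 117 to 494 in kidney. In NT mice, replicate 4 stood apart from the other replicates of its group in both tissues by the chi-square of its counts, so that values without it are given where it matters.

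Dbp varied widely within every group, with a coefficient of variation of 57.8% in NT kidney, 56.1% in shFos kidney, 151% in NT liver, where 1 library stood far above the others, and 52.3% in shFos liver. It was lower in every shFos kidney library than in every NT kidney library. The 4 NT kidney libraries had 3.48, 14.9, 6.73 and 14.7 CPM (75 to 317 reads), and the 4 shFos kidney libraries had 0.923, 3.19, 1.53 and 1.39 CPM (20 to 67 reads). The lowest NT library lay just above the highest shFos library. The mean was 9.95 ± 5.75 CPM with NT and 1.76 ± 0.987 with shFos, a log2 fold change of -2.49 with a standard error (SE) of 0.53. In NT liver Dbp was at 1.38, 21.1, 1.83 and 1.50 CPM, and in shFos liver at 2.07, 0.949, 0.576 and 1.28 CPM. The liver groups overlapped: 3 NT libraries lay within the shFos range, and replicate 2 alone was high. The liver log2 fold change was -2.40 (SE 0.996) with that library and -0.39 without it. Dbp (chr7:45705088-45710203, plus strand, GENCODE M21 on GRCm38) overlaps Sphk2 on the opposite strand. Reads were counted without regard to strand, so the strand of a read on a member's exon is not known. The overlaps named here for 6 of the 8 members are of whole gene spans. Reads that fell on more than 1 counted gene were set aside as ambiguous. The share of a member's reads that came from an antisense gene was not tested.

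Tef (chr15:81802421-81826863, plus strand, overlapping Gm17597), the most abundant PAR bZIP member per kilobase of exon in every group, was likewise lower in all shFos kidneys. It was at 129, 150.5, 131 and 223 CPM in NT kidney and at 101, 95.0, 75.4 and 80.4 CPM in shFos kidney. These ranges did not overlap, and NT replicate 4 was the highest library (log2 fold change -0.84, SE 0.17, and -0.65 without that replicate). Liver Tef was at 93.8, 125, 60.0 and 87.3 CPM with NT and at 80.4, 62.3, 45.1 and 73.0 with shFos, with overlapping ranges and a log2 fold change of -0.50 (SE 0.24), which was -0.32 without NT replicate 2. Hlf (chr11:90336536-90390895, minus strand), the remaining PAR bZIP member, went with neither: it was at 69.7, 54.8, 60.7 and 72.8 CPM in NT kidney and 54.4, 84.2, 76.8 and 73.4 CPM in shFos kidney. Both the lowest and the highest kidney values of Hlf came from shFos libraries (log2 fold change 0.17, SE 0.14, with 0.10 to 0.25 when 1 library was left out and 0.05 after correction for GC content). In liver Hlf spanned 45.1 to 56.4 CPM with NT and 38.5 to 69.7 CPM with shFos (log2 fold change 0.16, SE 0.17), and the fold change was 0.06 without shFos replicate 4 and 0.30 without shFos replicate 3.

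Per kilobase of exon, the PAR bZIP transcripts together came to 41.6 to 68.2 CPM per kilobase in NT kidney and 30.5 to 36.8 in shFos kidney, so the sums did not overlap. Tef supplied 64.2 to 69.3% of the sum in NT kidney and 52.6 to 67.8% in shFos kidney. Dbp supplied 4.55 to 16.3% and 1.60 to 4.71%, respectively, and Hlf 18.9 to 29.7% and 30.6 to 44.7%. In liver the sums overlapped, at 21.7 to 47.1 with NT and 16.7 to 29.6 with shFos, and the highest was the NT replicate 2 library in which Dbp reached 24.4% of the sum.

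**Figure D1:**
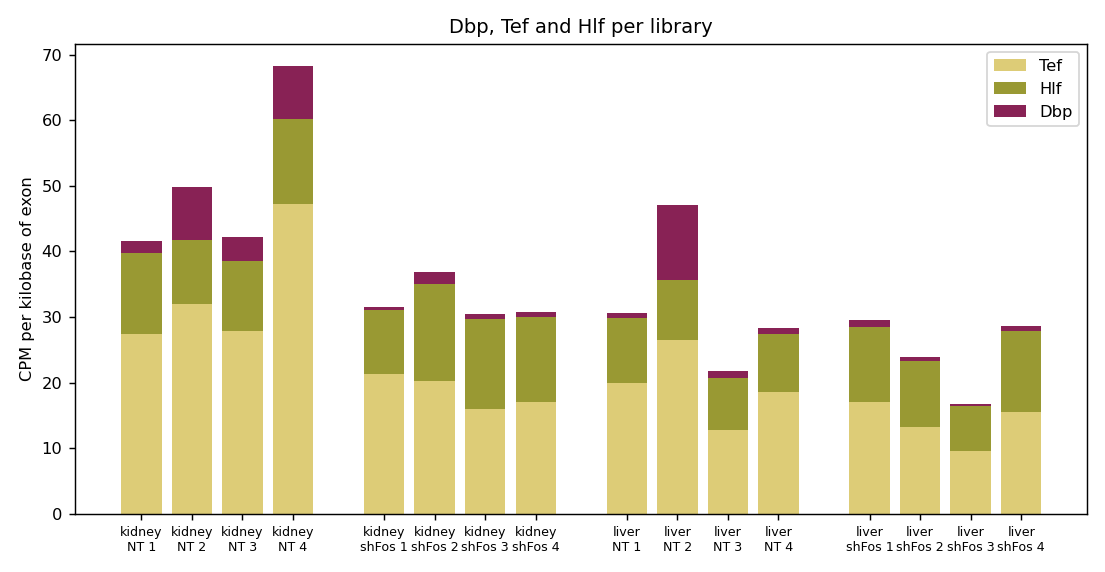
Summed level of Tef, Hlf and Dbp in CPM per kilobase of exon (y axis) in each of the 16 libraries (x axis), with 1 stacked bar per library. Tef and Hlf make up most of every bar, all 4 NT kidney bars (41.6 or more) stand above all 4 shFos kidney bars (36.8 or less), and a broad Dbp segment is seen in NT kidney replicates 2 and 4 and in NT liver replicate 2.

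Nfil3 (chr13:52967209-52981073, minus strand), the repressor at the D-box, ran the other way in kidney. It was at 15.6, 7.32, 10.9 and 14.3 CPM in NT kidney and at 20.45, 20.03, 20.1 and 19.3 CPM in shFos kidney. The shFos libraries were higher than every NT library and almost equal to each other (SD 0.468 against 3.71 CPM; log2 fold change 0.74, SE 0.20). Liver Nfil3 was several times more abundant, at 97.6, 37.7, 78.3 and 56.0 CPM with NT and 77.8, 98.7, 72.0 and 89.5 with shFos, and the groups overlapped (log2 fold change 0.31, SE 0.26, with 0.10 without NT replicate 2 and 0.54 without NT replicate 1). The library with the lowest Nfil3 was NT replicate 2 in each tissue. The ratio of Dbp reads to Nfil3 reads within a library, which needs no scaling between libraries, was 0.223 to 2.03 in NT kidney and 0.0452 to 0.159 in shFos kidney. The ratio of Tef reads to Nfil3 reads was 8.28 to 20.6 and 3.74 to 4.92, respectively. Hlf to Nfil3 was 4.47 to 7.49 and 2.66 to 4.21, so all 3 ratios lay apart in kidney, including that of Hlf, whose own level overlapped between the groups. A gap in these ratios can therefore come from Nfil3 alone. In liver all 3 overlapped, at 0.0142 to 0.559 against 0.00800 to 0.0267 for Dbp and 0.766 to 3.32 against 0.626 to 1.03 for Tef and 0.576 to 1.36 against 0.535 to 0.828 for Hlf.

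Ciart (chr3:95878503-95882251, minus strand, overlapping C920021L13Rik), the member with the fewest reads in kidney, was lower in all shFos kidneys. NT kidney had 1.11, 1.46, 1.06 and 4.25 CPM (23 to 91 reads) and shFos kidney had 0.554, 0.0476, 0.346 and 0.375 CPM (1 to 12 reads). The shFos replicate 2 library was under the level of 3 reads, and NT replicate 4 was far above the other NT kidneys. The log2 fold change was -2.54 (SE 0.65), -1.86 without NT replicate 4 and -2.17 without shFos replicate 2. In liver Ciart was at 0.554, 1.47, 0.659 and 4.50 CPM with NT and 1.12, 0.870, 0.823 and 0.599 CPM with shFos. The ranges overlapped, and NT replicate 4 again had the highest value (log2 fold change -1.08, SE 0.65, and -0.09 without it).

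The related repressors Bhlhe40 (chr6:108660629-108666925, plus strand, overlapping 0610040F04Rik) and Bhlhe41 (chr6:145858243-145865558, minus strand, overlapping Gm43909) differed in how far apart the kidney groups lay. Bhlhe41 was at 5.38, 5.49, 7.69 and 7.19 CPM in NT kidney and 2.22, 5.09, 2.97 and 2.84 CPM in shFos kidney (116 to 167 and 48 to 107 reads). The groups did not overlap, with shFos replicate 2 close to the lowest NT library (log2 fold change -0.97, SE 0.26). Bhlhe40 was at 121, 96.2, 100.1 and 96.9 CPM in NT kidney and 96.3, 98.9, 66.6 and 80.5 CPM in shFos kidney, which overlapped (log2 fold change -0.27, SE 0.13, and -0.18 without shFos replicate 3). In liver Bhlhe41 was at 1.20, 3.83, 4.10 and 1.20 CPM with NT and 0.638, 1.74, 1.48 and 0.856 CPM with shFos, so the groups overlapped (log2 fold change -1.14, SE 0.52). Liver Bhlhe40 spanned 118 to 231 CPM with NT and 101.5 to 169 with shFos (log2 fold change -0.29, SE 0.24), and the fold change was -0.12 without NT replicate 2 and -0.44 without NT replicate 4.

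The activator Rora (chr9:68653786-69388246, plus strand, overlapping Gm15511) had overlapping groups in both tissues. It was at 35.1, 32.2, 36.9 and 48.4 CPM in NT kidney and 38.2, 37.2, 44.8 and 42.8 in shFos kidney, where the shFos values all lay within the NT range (log2 fold change 0.10, SE 0.13). The fold change was 0.03 without NT replicate 2, 0.23 without NT replicate 4 and -0.08 after correction for GC content. In liver it spanned 71.6 to 90.3 CPM with NT and 83.8 to 100.4 CPM with shFos, with overlap (log2 fold change 0.16, SE 0.11, and 0.09 without NT replicate 2).

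**Figure D2:**
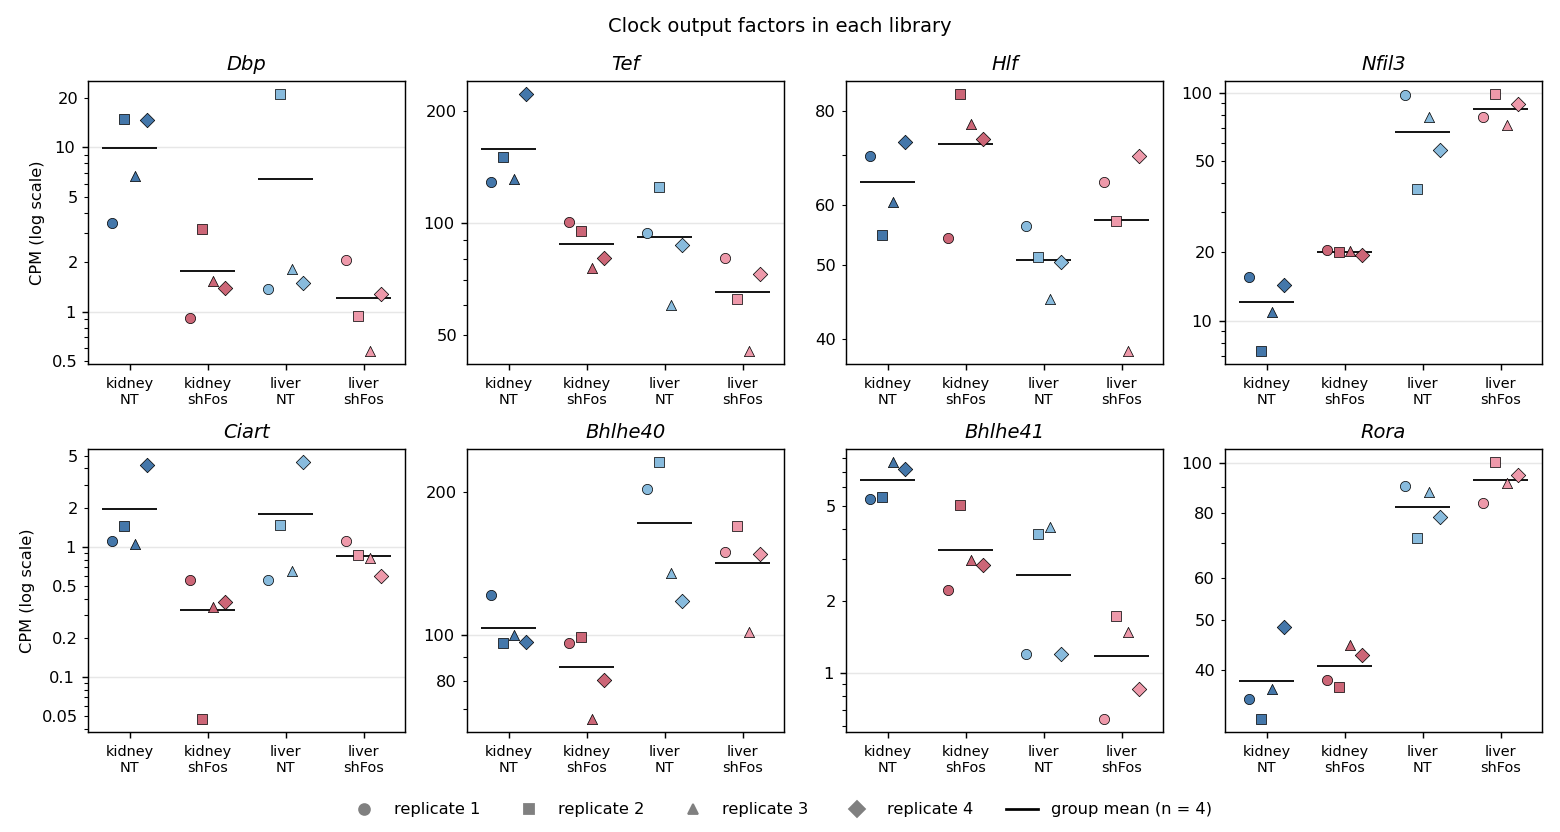
CPM on a log axis of each member in NT and shFos kidney and liver, with 1 point per library shaped by replicate number and a line at the group mean (n = 4). In kidney the points of Dbp, Tef, Ciart and Bhlhe41 lie lower with shFos and those of Nfil3 higher, without overlap, while in liver the groups of all 8 members overlap and the Dbp mean is pulled up by 1 NT library at 21.1 CPM.

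Counted over the members, the kidney groups did not overlap for 4 members that were lower with shFos and 1 that was higher, 5 of 8, where 17.2% of the 14892 genes tested did not overlap (7.29% lower and 9.9% higher). By edgeR's quasi-likelihood test 0 of 8 members were called at an adjusted p under 0.05, as were 0% of all genes. At an unadjusted p under 0.05, 4 members were lower and 1 higher, where 14.8% of genes were lower and 17.1% higher. The balance over all genes depended on the scaling and on 1 library: 2198 genes were lower and 2549 higher, but 2677 lower and 1970 higher with upper-quartile scaling, where Bhlhe40 (-0.33) was also below that threshold, and 3311 lower and 2792 higher without shFos replicate 1. DESeq2, the tool of the study, called 4 members, Dbp, Tef and Bhlhe41 lower and Nfil3 higher, and gave no adjusted p for Ciart, where it called 20.4% of genes (11.6% higher and 8.8% lower). The median log2 fold change was -0.56 over the members and 0.00 over all genes tested. The calls depended on 1 library: without shFos kidney replicate 1, edgeR called Dbp, Tef, Ciart and Bhlhe41, all lower, and 27.5% of all genes. A single fit of all 16 libraries called Tef and Ciart and 6.45% of genes. Ciart had 1 to 12 reads in shFos kidney and passed the read filter within kidney through the NT libraries, where it was high. Its direction in these kidney counts was thus fixed by the filter, and nothing is drawn from its calls. As the members were chosen with this contrast known, the counts describe them and support nothing further.

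In liver the groups of 0 of 8 members failed to overlap (4.56% of 13144 genes did not overlap). edgeR called 0 members (0% of genes called), DESeq2 called 0 of the 6 for which it gave an adjusted p, with none for Dbp and Ciart (0.315% of genes called), and 1 member, Dbp, was lower at an unadjusted p under 0.05 (3.16% of genes lower). The median was -0.39 over the members and -0.01 over all genes. The difference between the tissues in the response was called for 0 of 8 members by edgeR (0% of 15421 genes) and for 0 of the 6 to which DESeq2 gave an adjusted p, with none for Ciart and Bhlhe41 (2.96% of genes). It was called for 0 at an unadjusted p under 0.05 (8.25% of genes higher and 7.84% lower, which is 1273 and 1209 genes, against 1011 and 1456 with upper-quartile scaling), so a difference between kidney and liver in any member's response was not shown. Kidney markers summed to 7213 to 8711 CPM with NT and 8307 to 9804 with shFos. Leukocyte markers summed to 74.7 to 211 and 143 to 167 CPM in kidney and 99.4 to 523 and 150.2 to 256 CPM in liver, and endothelial and mesenchymal markers to 124 to 243 and 213 to 255 in kidney and to 80.1 to 107 and 106 to 127 in liver. Reads that fell on more than 1 gene made up 2.14 ± 0.0535% in NT kidney and 1.98 ± 0.115% in shFos kidney (exact permutation p = 0.0286). The part of these values in the results was not tested, and in whole tissue fewer cells of a type and less RNA per cell cannot be told apart. As the hour of tissue collection is not given, a difference in it between the groups was not tested. It cannot be told apart from the hairpin in these comparisons.

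**Figure D3:**
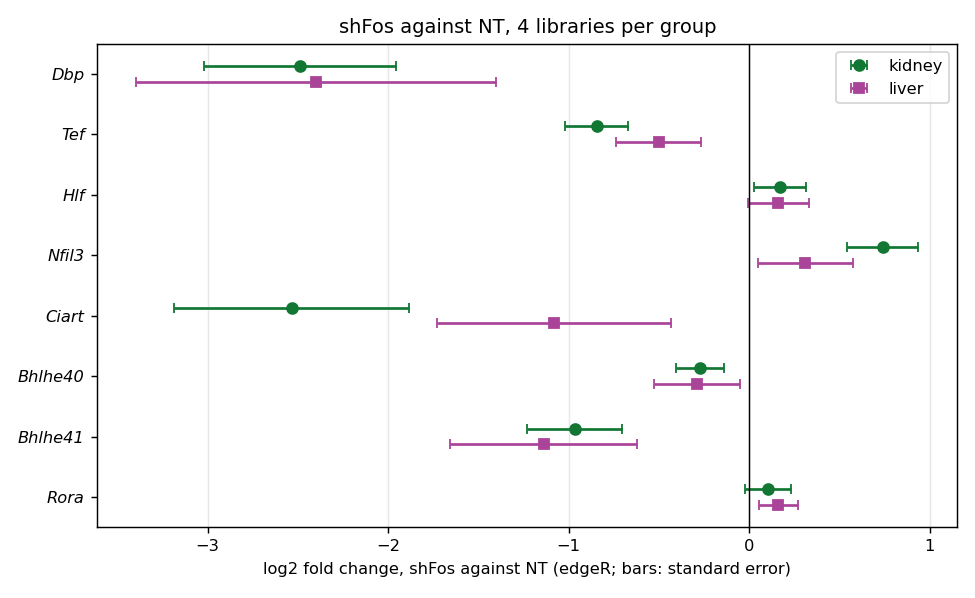
Log2 fold change of each member, shFos against NT, in kidney and in liver (x axis, 4 libraries per group), with bars for the standard error from edgeR. Dbp, Tef, Ciart, Bhlhe40 and Bhlhe41 lie below 0 and Hlf, Nfil3 and Rora above 0 in both tissues, with Rora at -0.08 in kidney after GC correction, and the liver bars of Dbp are the widest, at 0.996.

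The core clock list, 15 genes without the members, had 14 tested in each tissue. In kidney 0 were called by edgeR, with 3 higher and 5 lower at an unadjusted p under 0.05, where 17.1% of all genes were higher and 14.8% lower, and DESeq2 called 3 higher and 4 lower, where it called 11.6% of genes higher and 8.8% lower. Arntl had a log2 fold change of 1.06 (SE 0.20) in kidney, with 9.72 to 18.8 CPM in NT and 27.7 to 34.0 CPM in shFos libraries, which did not overlap. Per3, a PER family member, had a log2 fold change of -1.72 (SE 0.21), Nr1d1, which encodes REV-ERB alpha, one of -1.30 (SE 0.48), and Cry1, a repressor of BMAL1-CLOCK, one of 0.40 (SE 0.44), which was 1.02 without NT replicate 1 and 0.13 without NT replicate 2. In liver 0 were called by either tool and 2 were lower at an unadjusted p under 0.05 (3.16% of genes lower), among them Nr1d1 at -2.54 (SE 0.87). Liver Arntl was at 0.55 (SE 0.28), Per3 at -0.43 (SE 0.49) and Cry1 at 0.69 (SE 0.61). When 1 library was left out, Arntl ranged from 0.30 (without NT replicate 2) to 0.74 (without NT replicate 1), Per3 from -0.81 (without shFos replicate 1) to -0.05 (without NT replicate 2) and Cry1 from 0.35 (without NT replicate 2) to 1.53 (without NT replicate 1).

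Of 10 genes known as targets of the PAR bZIP factors, such as drug-metabolizing enzymes, 7 were tested in kidney (4 higher, 3 lower) and 10 in liver (4 higher, 6 lower). edgeR called 0 of them in either tissue, where it called 0% of all genes. At an unadjusted p under 0.05 there were 0 as well. The shares of all genes were 17.1% higher and 14.8% lower in kidney, and 3.58% higher and 3.16% lower in liver. DESeq2 also called 0, where it called 20.4% of genes in kidney and 0.315% in liver. It gave no adjusted p for Cyp2a5 in kidney. The smallest p in kidney belonged to Cyp2a5, a coumarin-metabolizing cytochrome P450, at a log2 fold change of -1.32 (SE 0.85). That value rested on NT replicate 4, which had 792 CPM where the other NT kidneys had 68.9 to 82.4, and it was 0.43 without that library. Cyp2a5 has a near-identical copy, Cyp2a4, and how reads were split between the copies was not tested. Ppara, a fatty acid sensing receptor, was next at 0.28 (SE 0.30), with 0.07 to 0.61 when 1 library was left out. Of 6 other clock-controlled genes, edgeR called 0 in kidney, with 1 higher and 1 lower at an unadjusted p under 0.05, the pair that DESeq2 also called, against the same shares of all genes as for the core clock list. These were Slc9a3, a sodium-proton exchanger of the tubule, at 0.89 (SE 0.23) and Scnn1a, the alpha subunit of the epithelial sodium channel, at -0.74 (SE 0.26). Scnn1a was at 394.5 CPM in NT kidney replicate 4 and 165 to 221 in the other NT kidneys, and at -0.42 without replicate 4. In liver 4 of them were tested and edgeR and DESeq2 called 0, with 1 higher at an unadjusted p under 0.05 (3.58% of genes higher), which was also Scnn1a, at 0.49 (SE 0.14). The difference between the tissues in the Scnn1a response had an adjusted p of 0.18 by edgeR and 0.0261 by DESeq2.

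The members were also compared between the tissues. The values that led to the choice of the members are not given in the sources used here. The hairpin contrasts were taken to be those values, and the tissue tests are independent of the choice only if that is so. In NT mice edgeR called 6 of 8 members different between kidney and liver, where it called 60% of 14875 genes. Of these, 3 were higher in kidney (32.3% of genes) and 3 were higher in liver (27.7% of genes). Nfil3 was the member with the largest tissue difference, with 7.32 to 15.6 CPM in NT kidney and 37.7 to 97.6 CPM in NT liver (log2 difference, kidney against liver, -2.48, SE 0.33, edgeR adjusted p = 0.00018). Rora was lower in kidney by a log2 difference of -1.10 (SE 0.14, edgeR adjusted p = 0.00011) and Bhlhe40 by -0.72 (SE 0.22, edgeR adjusted p = 0.0181). Bhlhe40 was no longer called with upper-quartile scaling (-0.55, edgeR adjusted p = 0.0515). Rora did not overlap between the tissues, whereas Bhlhe40 did.

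The members higher in NT kidney were Tef at 0.79 (SE 0.24, edgeR adjusted p = 0.0189), Hlf at 0.35 (SE 0.11, edgeR adjusted p = 0.022) and Bhlhe41 at 1.31 (SE 0.43, edgeR adjusted p = 0.0258). Hlf lost its call in 5 of the 8 fits that left out 1 library, at 0.27 to 0.33, and Tef was no longer called after GC correction (0.61) or without liver replicate 3 (0.61). Bhlhe41 lost it without liver replicate 1 (1.06) or kidney replicate 3 (1.21). Dbp did not pass in either direction, at 0.63 (SE 0.92, edgeR adjusted p = 0.579), and this value moved both ways: it was 2.63 and called without liver replicate 2, 0.27 to 0.91 without any other single library, not called, and 0.10 after GC correction. Ciart was at 0.11 (SE 0.72, edgeR adjusted p = 0.901), at -0.03 after GC correction, and from -0.57 (without kidney replicate 4) to 1.10 (without liver replicate 4) when 1 library was left out.

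The same contrast in shFos mice, which shares no library with the first, called 5 of the 7 members tested, where 69.5% of 14628 genes were called (36.8% higher and 32.8% lower in kidney). Ciart had too few reads to be tested. The 3 members lower in kidney were again Nfil3 (-2.08, SE 0.11, edgeR adjusted p = 6.02e-08), Rora (-1.18, SE 0.09, edgeR adjusted p = 1.36e-06) and Bhlhe40 (-0.73, SE 0.17, edgeR adjusted p = 0.00361). Bhlhe41 (1.47, SE 0.38, edgeR adjusted p = 0.00526) and Tef (0.43, SE 0.17, edgeR adjusted p = 0.0437) were higher in kidney, and Tef lost the call after GC correction (0.37) and in 6 fits without 1 library (0.29 to 0.49). Hlf was at 0.33 (SE 0.19, edgeR adjusted p = 0.136), with 0.18 without liver replicate 3, and was called without kidney replicate 1 (0.44) and with upper-quartile scaling (0.47). Dbp was at 0.53 (SE 0.47, edgeR adjusted p = 0.335), with 0.07 without kidney replicate 2 and 0.91 without liver replicate 1. By edgeR all 10 PAR bZIP target genes were called lower in kidney than in liver in both NT and shFos mice, where 27.7% and 32.8% of genes were. The list was drawn largely from enzymes known for their liver expression. Among them, Nr1i3, Cyp2b10 and Cyp2c50 had too few kidney reads to be tested within kidney. These genes passed the read filter here through liver, so their direction was fixed by the filter and nothing is drawn from it.

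**Figure D4:**
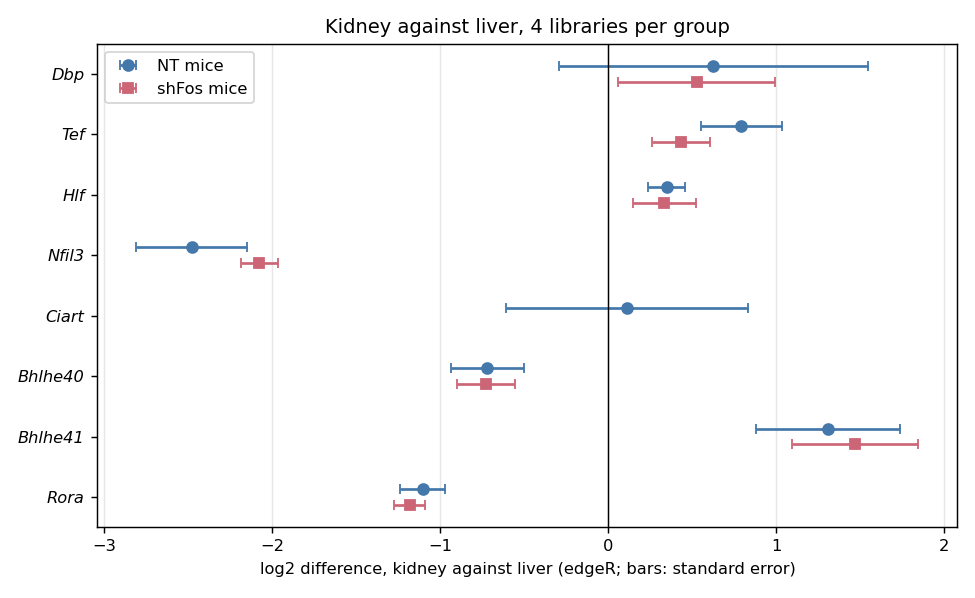
Log2 difference of each member between kidney and liver (x axis; above 0 is higher in kidney) in NT and in shFos mice, 4 libraries per group, with bars for the standard error from edgeR. Nfil3, Rora and Bhlhe40 lie below 0 and Tef, Hlf and Bhlhe41 above 0 in both groups of mice, and Ciart has a point for NT mice alone.

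Per kilobase of exon, the order of mean levels in NT kidney was Tef (33.6 ± 9.36 CPM per kilobase), Bhlhe40 (32.7 ± 3.77), Hlf (11.4 ± 1.46), Nfil3 (5.94 ± 1.83), Dbp (5.42 ± 3.13), Rora (3.39 ± 0.633), Bhlhe41 (1.03 ± 0.188) and Ciart (1.002 ± 0.779). The ranges of Tef and Bhlhe40 overlapped, as did those of Nfil3, Dbp and Rora and those of Bhlhe41 and Ciart, and the other neighbours were apart. In NT liver the order was Bhlhe40 (54.1 ± 17.1), Nfil3 (33.3 ± 12.9), Tef (19.4 ± 5.66), Hlf (9.01 ± 0.823), Rora (7.31 ± 0.766), Dbp (3.51 ± 5.31), Ciart (0.913 ± 0.940) and Bhlhe41 (0.412 ± 0.255). There, Tef and Hlf were the neighbours whose ranges were apart. With shFos, the mean of Dbp was 0.958 ± 0.537 CPM per kilobase in kidney and 0.664 ± 0.347 in liver, below that of Rora in both tissues (3.62 ± 0.323 and 8.24 ± 0.616).

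Within a group the highest Dbp level was 4.28-fold the lowest in NT kidney and 3.45-fold in shFos kidney, and 15.2-fold in NT liver, through replicate 2, and 3.60-fold in shFos liver. To see which genes varied with it, each library's log2 CPM was expressed as its deviation from its group mean, which removes the hairpin and the tissue. Over 16 libraries, the deviations of Dbp and Arntl ran in opposite directions (Pearson r = -0.881, permutation p = 0.00114, adjusted over 8 relations 0.00912; Spearman rho = -0.835, permutation p = 0.00135, adjusted 0.0108). Of 10038 genes ranked by this measure, Arntl had the lowest r. Within kidney r was -0.801 (8 libraries, exact permutation p = 0.0556; rho = -0.810, p = 0.0486) and within liver -0.913 (8 libraries, exact permutation p = 0.0243; rho = -0.833, p = 0.0312), and neither passed after adjustment (0.444 and 0.194). Without the 2 libraries whose Dbp lay farthest from the median, NT liver replicate 2 and shFos kidney replicate 2, r was -0.704 (permutation p = 0.0392, adjusted 0.313), so the adjusted call does not hold without them. Without NT liver replicate 2 alone the call was also lost (r = -0.694, permutation p = 0.0161, adjusted 0.129), and without shFos kidney replicate 2 alone it was kept (r = -0.891, permutation p = 0.00287, adjusted 0.023). Kidney and liver libraries of the same number varied together in NT mice and, more weakly, in shFos mice. The 16 libraries may therefore not be 16 independent samples, and the pooled p-values are then too small.

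Among the members, Tef varied with Dbp (r = 0.659, permutation p = 0.0299, adjusted 0.119; rho = 0.544, permutation p = 0.0552, adjusted 0.221) and Nfil3 against it (r = -0.635, permutation p = 0.0807, adjusted 0.215; rho = -0.426, permutation p = 0.185, adjusted 0.37), and neither relation passed the adjustment. Without the 2 farthest libraries r was 0.534 for Tef and -0.329 for Nfil3. For Hlf r was 0.28, for Bhlhe40 0.402, for Bhlhe41 0.379, for Rora -0.28 and for Ciart 0.0586, with adjusted permutation p-values of 0.4 to 0.902 (rho from -0.335 to 0.359, adjusted permutation p-values of 0.37 to 0.757). For Ciart the single libraries went as follows: NT replicate 4 had the highest Ciart in both tissues but a low Dbp in liver, at 1.50 CPM, whereas NT replicate 2 had the highest Dbp in both tissues and 1.46 and 1.47 CPM of Ciart. The non-member genes most like Dbp by the same measure were Pdk2 (r = 0.891), Parp12 (0.861), Bri3 (0.857), Bfar (0.843) and Abhd4 (0.843), given as a description over 16 libraries. Of the core clock genes, Npas2, a paralogue of Clock, had an r of -0.709 and Cry1 one of -0.587, while Nr1d2 had an r of 0.612, Per3 of 0.512 and Nr1d1 of 0.475.

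**Figure D5:**
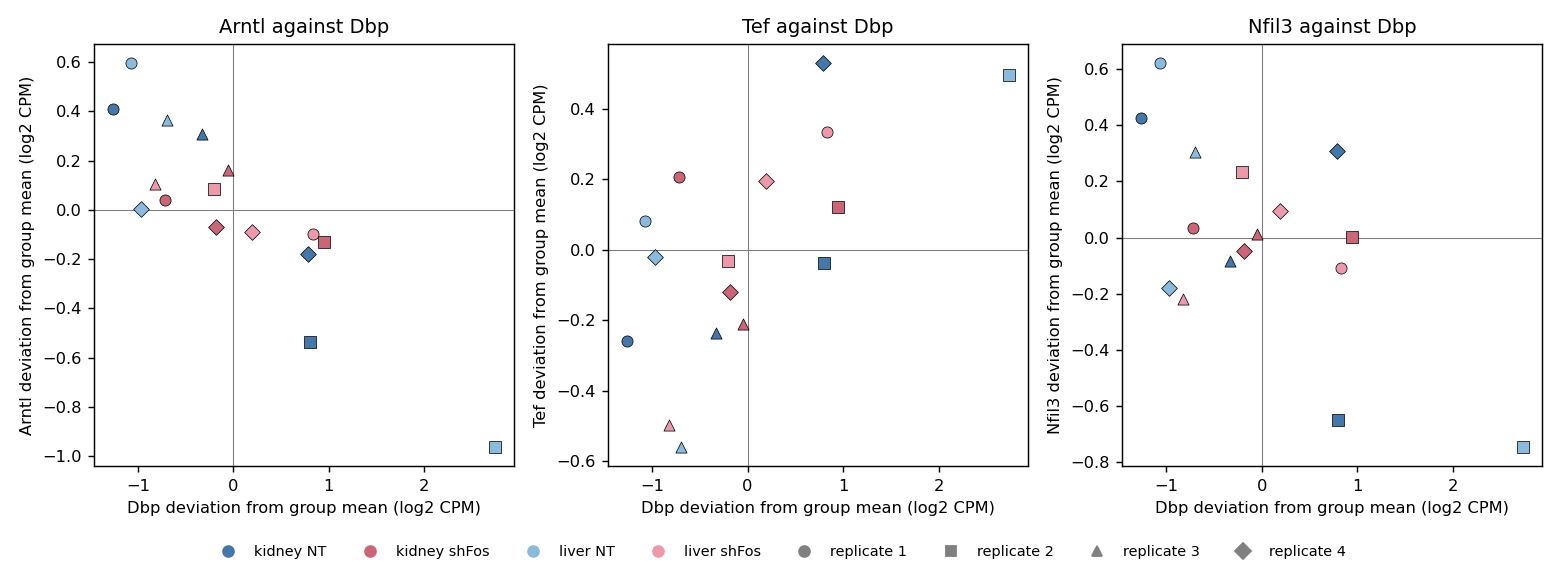
Deviation of each library from its group mean in log2 CPM, with Dbp on the x axis and Arntl, Tef or Nfil3 on the y axis, 16 libraries coloured by group and shaped by replicate number. Arntl falls along Dbp (r = -0.881), with NT liver replicate 2 at the far right with a Dbp deviation of 2.74, while Tef (r = 0.659) and Nfil3 (r = -0.635) scatter more widely.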

How the data were processed

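RNA from 8 kidneys and 8 livers gave 16 libraries. Per the labels and the study's methods, the authors trimmed reads with Trimmomatic 0.39, aligned them to mm10 with HISAT2 2.2.1, counted them per gene with HTSeq 0.12.4 without regard to strand and deposited raw counts for 24984 genes; 13.4 to 26.7% of reads fell on no gene and stayed out. CPM were scaled by TMM over all 16 libraries, and exon lengths came from GENCODE M21. The tests used edgeR 4.0.16 (quasi-likelihood, filterByExpr, Benjamini-Hochberg adjustment, threshold 0.05) within each tissue, over all libraries for the interaction, and between tissues within each hairpin; DESeq2 1.42.0, other scalings, filters, GC correction, a replicate block and leaving out libraries were alternatives. Deviations used log2 CPM with a prior count of 2, permuted 100000 times within groups.

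The members and gene lists were chosen with earlier results of these data known. The text names all members, Fos, Arntl, Nr1d1, Per3, Cry1, the 2 genes of each other list with the smallest kidney p, and the 5 genes most like Dbp; Npas2 and Nr1d2 were named after their values were seen. Nothing in the labels says which kidney and liver share a mouse. In NT mice, deviations of the same-numbered kidney and liver correlated over genes at 0.115 to 0.326, and those of unlike number at -0.341 to 0.174. In shFos mice the values were 0.0387 to 0.147 and -0.14 to 0.0659. Libraries of the same number were treated as paired in an alternative. Libraries of 1 group differed beyond sampling noise, and p-values measure the spread between libraries. On simulated data with 200 genes changed 2-fold, the kidney test recovered 58% and called 15 unchanged genes among 14732, and the NT tissue test recovered 40.5% and called 3 among 14594. Each simulated gene was drawn independently of the others and no other gene changed. These shares therefore do not give the recovery in the real libraries. The level of 3 reads covers counting error only.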

Additional observations from a re-analysis of the deposited data

Results flagged for a closer look

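In 3 of 32 groups of 4 libraries (8 members in 4 groups), 1 library stood apart from the other 3 by Dixon's criterion, where chance would give about 1.6. Dbp in NT liver replicate 2 was at 21.1 CPM, with the others at 1.38 to 1.83 CPM. Ciart in NT kidney replicate 4 was at 4.25 CPM, with the others at 1.06 to 1.46 CPM. Bhlhe40 in NT kidney replicate 1 was at 121 CPM, with the others at 96.2 to 100.1 CPM.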

How the results depend on the processing

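Of 680 alternative values of single genes, 628 kept their direction and side of the threshold, and of 111 alternative counts 103 stayed within 1.5 times. Part of this was fixed in advance. edgeR called 0 of all genes in the main kidney, liver and interaction fits and in most of their alternatives. A count of 0 beside 0 was scored as unchanged. The members called in kidney were 4 with DESeq2, 2 in a fit of all 16 libraries, and 0 to 4 when 1 library was left out. The relations of Dbp that passed were 0 in kidney alone, in liver alone and without the 2 farthest libraries, and 0 to 2 when 1 library was left out (0 without NT liver replicate 2; 2, Arntl and Tef, without NT liver replicate 3). Rora in kidney turned to -0.082 with GC correction and -0.0704 with GC correction and the block. Ciart, kidney against liver in NT mice, turned to -0.0255 with GC correction and ranged from -0.57 to 1.10 without 1 library. The r with Dbp turned in kidney alone for Ciart (-0.0124), Bhlhe40 (-0.288) and Rora (0.157), and without the 2 farthest libraries for Bhlhe40 (-0.136), Bhlhe41 (-0.0987) and Rora (0.176). With 1 library left out it ranged from -0.0713 to 0.32 for Ciart and from -0.638 to 0.0307 for Rora. The cause of these changes was not tested. Upper-quartile scaling moved the median of all genes between the tissues from 0.04 to 0.21 in NT mice and from 0.04 to 0.16 in shFos mice, and Bhlhe40 was then -0.55 and not called in NT mice.

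The same replicate number did not pair NT with shFos libraries (correlations from -0.138 to 0.113 in kidney and from -0.238 to 0.0402 in liver). Between shFos kidney and shFos liver, same-numbered correlations were small but all positive (0.0387 to 0.147), where unlike numbers gave -0.14 to 0.0659. With the replicate block the count of members called stayed at 0 in kidney, 0 in liver, 0 for the interaction, 6 between the tissues in NT mice and 5 in shFos mice, and it changed no other call; Dbp in liver was -1.43 with the block. Low read numbers limit Dbp and Bhlhe41 in liver and Ciart in both tissues.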
